A study of Mus musculus with 8 samples.

Results

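Chemokine receptors that steer T cells towards tissue were followed here in donor T cells of mice that had received an allogeneic transplant. They are the chemokine receptors Cxcr3, Cxcr4, Cxcr6, Ccr2, Ccr4, Ccr6, Ccr7, Ccr8 and Cx3cr1, taken by gene symbol from the deposited tables, without the follicle-homing receptor Cxcr5. These are 9 of 25078 gene rows, and all 9 were among the 12428 genes with enough counts to be tested. Irradiated WT BALB/c mice, which differ from the donors at the MHC, were given T cells of C57BL/6 donors together with T cell-depleted WT bone marrow. The donor T cells were WT, or STAT3KO from animals carrying floxed Stat3 alleles and a Cre driven by Cd4, which deletes the gene in both CD4 and CD8 T cells. Spleens were taken on day 6 after hematopoietic cell transplantation (HCT), and donor T cells were sorted as H-2Kb+ TCRβ+ CD4+ or CD8+ cells. CD4 and CD8 T cells of each genotype gave 4 groups with 2 libraries each. Each library combined cells of several recipients, nothing in the labels says how the libraries were spaced in time, and p-values measure only the spread between these libraries.

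Chemokine receptors are G protein-coupled receptors through which a leukocyte senses a gradient of chemokine and moves along it. Activated T cells generally lose receptors that hold them in lymph nodes and gain receptors for ligands made in inflamed tissue, which in graft-versus-host disease lets donor T cells enter gut, liver, lung and skin. STAT3 is a transcription factor activated by cytokines of the IL-6 family and by IL-21 and IL-23, and in CD4 T cells it is needed for Th17 cells, which carry Ccr6, and contributes to follicular helper cells.

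Total counts per library ran from 20171396 to 23282757, so that a count of 3 corresponded to 0.129 to 0.149 CPM (counts per 1000000 counts of the library). Levels below are CPM scaled by TMM, a library scaling factor that ran from 0.982 to 1.033. Sums over marker lists, levels of untested genes and percentages of the level in the other cell type use CPM by total counts, without TMM. Stat3 in CD4 T cells measured 436 and 428 CPM for WT against 138 and 141 for STAT3KO, and in CD8 T cells 431 and 436 against 120 and 143. It was lower in every STAT3KO library but not at 0. Summed T cell markers were at 4660 to 5730 CPM in the 8 libraries. Cd4 in CD8 libraries stood at 0.276% (WT) and 0.307% (STAT3KO) of its CD4 level, and Cd8a in CD4 libraries at 0.753% and 1.02% of its CD8 level. In all 4 groups the library numbered 2 had more macrophage mRNA than the library numbered 1, with Csf1r at 11.4 to 18.1 CPM against 0.562 to 2.55 CPM.

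Cxcr6, Cxcr4 and Cxcr3 were the most abundant of the 9 receptors in all 4 groups when levels were compared per transcript length, as the deposited RPKM, the reads per kilobase of transcript and library size. Cxcr6 binds CXCL16 and marks T cells that settle in liver and other tissues, Cxcr4 binds CXCL12 of the bone marrow, and Cxcr3 binds the interferon-induced ligands CXCL9 and CXCL10. In WT CD4 T cells their mean RPKM were 183.5 ± 17.7 for Cxcr6, 208.9 ± 54.5 for Cxcr4 and 166.0 ± 26.7 for Cxcr3 (SD, n = 2), and the libraries of the 3 genes overlapped. In the other 3 groups Cxcr6 came first, at 282 RPKM in STAT3KO CD4, 223 in WT CD8 and 265 in STAT3KO CD8, above the highest library of the next receptor, while Cxcr4 and Cxcr3 overlapped.

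Ccr2, the receptor for CCL2 on inflammatory cells, came next in every group with 46.9 to 77.3 RPKM, overlapping Ccr7 in WT CD4 alone. Ccr7, which draws naive and central memory T cells into lymph nodes, averaged 45.7 RPKM in CD4 T cells of WT and 28.3 of STAT3KO, and 22.6 and 13.6 in the respective CD8 T cells. Cx3cr1 was above Ccr7 in STAT3KO CD8 and overlapped it in WT CD8. Apart from that, the remaining 4 receptors were scarcer, and their order depended on the cell type. Ccr8 led these 4 in CD4 T cells (7.86 RPKM in WT and 12.7 in STAT3KO), whereas in CD8 T cells Cx3cr1 led (15.6 in WT and 19.4 in STAT3KO) and Ccr4 was last (0.137 and 0.183). In WT CD4 T cells Cx3cr1, Ccr6 and Ccr4 lay between 1.66 and 3.85 RPKM in every library and could not be ordered.

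**Figure D1:**
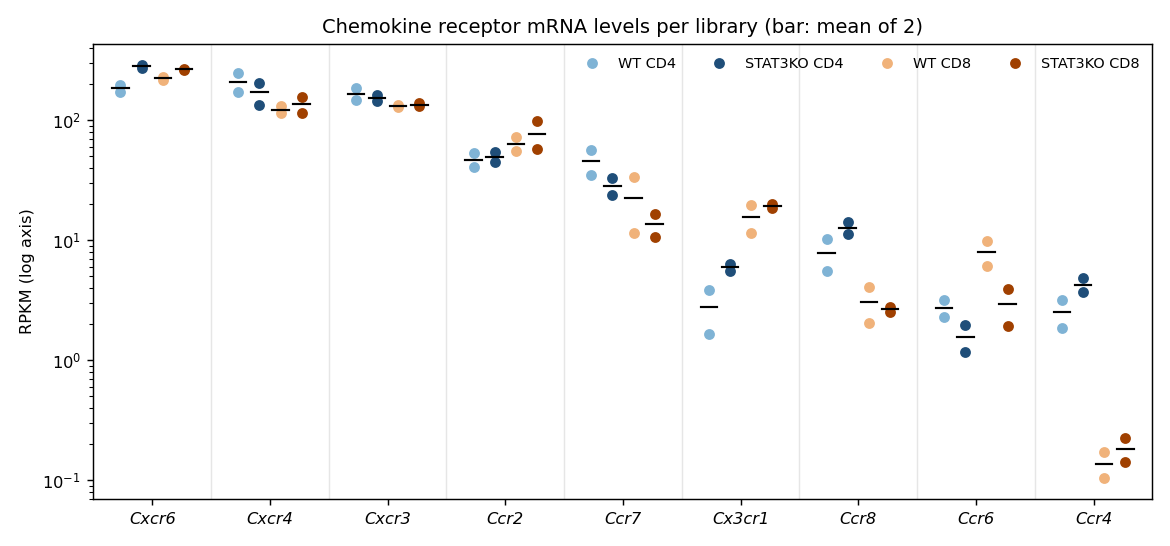
RPKM of the 9 receptors in each of the 8 libraries on a log axis, with 1 point per library and a bar at the mean of the 2 libraries of a group. Cxcr6, Cxcr4 and Cxcr3 lie highest in every group, and Ccr4 in the CD8 libraries, at 0.104 to 0.223 RPKM, lies lowest.

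The first comparison asked whether donor T cells without STAT3 carried other amounts of homing receptor mRNA. In CD4 T cells Cxcr6 rose 1.56-fold and was the 1 receptor of 9 called, while 11.6% of all genes tested were called in this comparison (6.54% higher and 5.08% lower in STAT3KO). No receptor was called by edgeR in CD8 T cells, where 2.07% of all genes were. Here 2 receptors, Ccr6 and Cxcr6, had an unadjusted p under 0.05, as had 19.3% of all genes. DESeq2 called 1, Ccr6, beside 7.12% of all genes, and limma on log2(RPKM + 1) none, beside 1.55%. A replicate block, which compares libraries of the same number, called Cxcr6, Cx3cr1, Ccr4, Ccr8, Ccr6 and Ccr7 in CD4 T cells. In CD8 T cells it called Ccr6. The block called 30.1% and 18.2% of all genes in CD4 and CD8 T cells. The receptors' median log2 difference was 0.10 (CD4), beside 0.02 for all genes, and 0.15 (CD8), beside -0.01.

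In CD4 T cells Cxcr6 measured 374 and 321 CPM for WT, and 555 and 532 CPM for STAT3KO. Both STAT3KO libraries were above both WT libraries, with a log2 difference of 0.65 (SE 0.11, 95% interval 0.39 to 0.90, adjusted p = 0.011). The direction was kept without any 1 library, with log2 differences of 0.53 to 0.73, but the call was lost without WT CD4 replicate 2 (adjusted p = 0.0682) and without either of the STAT3KO CD4 libraries (0.089 for replicate 1, 0.0676 for replicate 2). The CD8 libraries had Cxcr6 at 434 and 417 CPM in WT and at 500.4 and 520.1 in STAT3KO. Here too the groups did not overlap, but the log2 difference of 0.26 (SE 0.11) was not called (adjusted p = 0.249). Because these are sorted pools, more cells with Cxcr6 and more Cxcr6 mRNA per cell cannot be told apart, which holds for every receptor below.

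The groups did not overlap for 6 of the 9 receptors in CD4 T cells, where this held for 53.5% of all genes, and for 2 of 9 in CD8 T cells (Cxcr6 and Ccr6), where it held for 49.7%. The receptors with non-overlapping groups in CD4 T cells were Cxcr6, Cx3cr1, Ccr4 and Ccr8, all higher in STAT3KO, and Ccr6 and Ccr7, both lower.

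**Figure D2:**
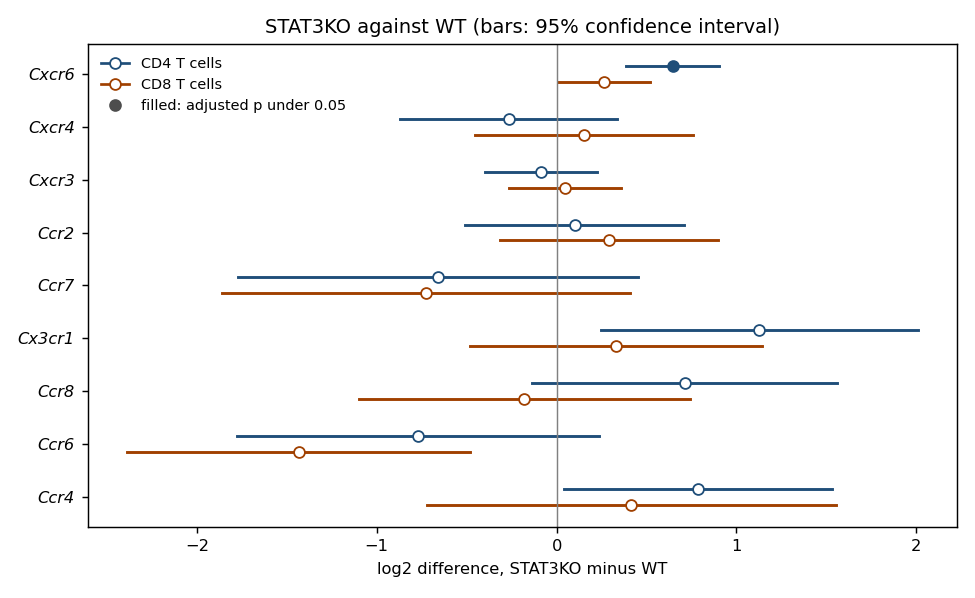
Log2 difference of STAT3KO minus WT for each receptor in CD4 and in CD8 T cells, with bars for the 95% confidence interval and filled points for an adjusted p under 0.05. Cxcr6 in CD4 T cells is the 1 filled point, and Ccr6 has the lowest value, -1.43, in CD8 T cells.

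Cx3cr1, the receptor for the membrane-bound chemokine CX3CL1 found on cytotoxic effector T cells, measured 14.6 and 6.19 CPM in the CD4 T cells of WT, against 24.0 and 21.3 CPM for STAT3KO. The WT libraries differed more from each other than the STAT3KO libraries did, and the log2 difference of 1.13 (SE 0.38) was not called by edgeR (adjusted p = 0.101). It was called by DESeq2 (adjusted p = 0.0123). The estimate depended on the WT libraries, with a log2 difference of 1.84 without WT CD4 replicate 1 and of 0.63 without WT CD4 replicate 2. Cx3cr1 is also a monocyte gene. The summed monocyte and macrophage list, with 14 of its 15 genes tested, was at 88.8 to 140 CPM in WT CD4 and 170 to 269 CPM in STAT3KO CD4, and 2 of its genes, Itgam and Ly6c2, which activated T cells can also express, were called higher there. Csf1r, a defining macrophage gene, measured 1.95 and 11.4 CPM for WT there, and 2.55 and 14.2 for STAT3KO. Csf1r was higher in the library numbered 2 and Cx3cr1 in the library numbered 1 in all 4 groups, and other genes also differed by library number. The part of monocytes and macrophages in the Cx3cr1 values was not tested. In CD8 T cells Cx3cr1 was at 73.7 and 43.8 CPM in WT and 75.8 and 71.8 in STAT3KO, which overlapped (log2 difference 0.33, SE 0.35, adjusted p = 0.682).

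Ccr4 and Ccr8 are receptors of type 2 helper and regulatory T cells, and Ccr4 also serves homing to skin. Among CD4 T cells, Ccr4 measured 8.93 and 5.15 CPM for WT, against 10.5 and 13.8 for STAT3KO, a log2 difference of 0.79 (SE 0.32, adjusted p = 0.162). Ccr8 measured 11.9 and 6.29 CPM for WT, against 16.6 and 13.3 for STAT3KO, a log2 difference of 0.71 (SE 0.37, adjusted p = 0.257). Neither was called, although both STAT3KO libraries were above both WT libraries. Foxp3, which defines regulatory T cells, measured 12.2 and 10.4 CPM for WT, against 12.8 and 15.95 for STAT3KO, and none of the 6 regulatory T cell markers was called. Among CD8 T cells, Ccr8 was at 4.67 and 2.40 CPM in WT and 2.94 and 3.29 in STAT3KO, and Ccr4 was at 0.476 and 0.295 CPM in WT and 0.627 and 0.406 in STAT3KO. Those Ccr4 values rest on 7 to 13 counts per library, and for neither gene could a STAT3KO difference be seen at this depth and spread.

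Ccr6, the receptor for CCL20 on Th17 cells and on some memory cells, had the largest estimated decrease in both cell types. It measured 12.7 and 20.8 CPM in CD8 T cells of WT, against 4.003 and 8.35 for STAT3KO. Both STAT3KO libraries were below both WT libraries, and the log2 difference of -1.43 (SE 0.41, 95% interval -2.39 to -0.48) was not called by edgeR (adjusted p = 0.116). DESeq2 called it (adjusted p = 0.0142), and so did edgeR with no low-count filter (adjusted p = 0.0414) and edgeR with the replicate block. The CD4 libraries had Ccr6 at 4.79 and 6.52 CPM in WT and at 2.45 and 4.16 in STAT3KO, with a log2 difference of -0.77 (SE 0.43, adjusted p = 0.303).

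The sequences before the gene starts of Ccr6 and Cxcr6 are shown because these were the receptors with non-overlapping STAT3KO and WT groups in both cell types. STAT proteins recognise the palindrome TTCNNNGAA, which reads alike on both strands. It was searched in RefSeq windows of 300 bases, from 250 before to 50 after the gene start, in the GRCm38.p6 assembly, which is mm10. Of 9 windows of 8 receptors, with 2 starts for Ccr6, 1 held the motif, and of 32851 windows of all genes 8.3% did. No window of Ccr7 was in the table. The first Ccr6 window held it at 2 places that do not overlap, TTCAAAGAA beginning 157 bases and TTCCAAGAA beginning 120 bases before the gene start, both in capitals below. The Cxcr6 window held none, which says only that these letters are not in that stretch. The 250 bases before each start are given 5′ to 3′ on the plus strand.
Ccr6, chr17:8235793-8236042: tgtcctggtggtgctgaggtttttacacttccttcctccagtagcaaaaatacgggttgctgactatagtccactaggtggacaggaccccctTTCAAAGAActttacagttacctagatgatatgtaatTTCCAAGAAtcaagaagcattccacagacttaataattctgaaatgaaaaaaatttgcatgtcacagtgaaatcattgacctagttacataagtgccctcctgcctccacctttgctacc
Cxcr6, chr9:123806227-123806476: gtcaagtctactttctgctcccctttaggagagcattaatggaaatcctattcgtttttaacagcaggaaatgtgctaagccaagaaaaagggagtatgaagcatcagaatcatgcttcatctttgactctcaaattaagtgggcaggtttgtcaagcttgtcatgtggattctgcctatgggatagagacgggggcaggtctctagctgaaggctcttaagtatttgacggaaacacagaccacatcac
A match is a run of letters and was not measured as a binding site in these data.

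Ccr7 measured 70.0 and 110.3 CPM in CD4 T cells of WT, against 47.5 and 66.5 for STAT3KO. The CD8 libraries had 22.7 and 67.6 CPM of it for WT, against 21.0 and 33.5 for STAT3KO. The groups did not overlap in CD4 T cells and overlapped in CD8 T cells. The log2 differences of -0.66 (SE 0.48) and -0.73 (SE 0.49) were not called, with adjusted p of 0.430 and 0.480. The CD8 estimate depended on a single WT library, since without WT CD8 replicate 2 it was 0.25 instead of -0.73.

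Cxcr3, Cxcr4 and Ccr2 overlapped between STAT3KO and WT in both cell types. In CD4 T cells Cxcr3 measured 239 and 295 CPM for WT, against 236 and 267 for STAT3KO, and in CD8 T cells 207 and 219 against 212 and 229. Its intervals were the narrowest of these, -0.40 to 0.23 in CD4 and -0.26 to 0.36 in CD8 T cells on the log2 scale, which leaves room for a difference of that size. Cxcr4 measured 311 and 445 CPM for WT, against 247 and 382 for STAT3KO, in CD4 T cells, and 207 and 242 against 211 and 287 in CD8 T cells. Ccr2 measured 193 and 145 CPM for WT, against 197 and 165 for STAT3KO, in CD4 T cells, and 258 and 202 against 353 and 209.7 in CD8 T cells. Cxcr3 and Cxcr4, like Ccr6 and Ccr7, were higher in the library numbered 2 in all 4 groups, and Ccr2 and Cx3cr1 were higher in the library numbered 1.

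Whether the STAT3KO difference itself differed between CD8 and CD4 T cells was tested as an interaction. None of the 9 receptors was called by edgeR, DESeq2 or limma, and edgeR called 0% of all genes, with 0.0916 as the smallest adjusted p. Over all genes DESeq2 called 1.51%, limma on log2(RPKM + 1) 0.105% and edgeR without the low-count filter 0.25%. Cxcr6 alone of the 9 had an unadjusted p under 0.05, as had 7.9% of all genes, with a smaller STAT3KO difference in CD8 than in CD4 T cells by a log2 value of -0.38 (95% interval -0.75 to -0.02, adjusted p = 0.598). For Ccr6 the interaction was -0.66 (95% interval -2.04 to 0.72), for Cx3cr1 -0.80 (-1.99 to 0.40) and for Ccr8 -0.89 (-2.14 to 0.36). These data therefore did not show a receptor that responded in 1 cell type and not in the other, and the intervals are too wide to say that the responses were alike.

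The second comparison set CD8 against CD4 T cells within each genotype. In WT T cells 4 of 9 receptors were called, Cx3cr1 and Ccr6 higher in CD8 and Ccr4 and Ccr8 lower, while 23.8% of all genes were called (12.2% up and 11.6% down in CD8). In STAT3KO T cells 3 of 9 were called, Cx3cr1 higher and Ccr4 and Ccr8 lower, and 12.5% of all genes were (5.84% higher and 6.67% lower). The 2 genotypes are separate libraries, so the directions of these 3 genes were measured in each. Their calls are not independent, because a single fit of all 8 libraries gave the spread for both genotypes. The groups did not overlap for 9 of 9 receptors in WT and 7 of 9 in STAT3KO, against 59.3% and 58.3% of all genes.

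Ccr4 differed most. Its level in CD8 T cells, below 1 CPM in all 4 libraries, was 5.48% of the CD4 level in WT and 4.23% in STAT3KO. The log2 differences were -4.17 (SE 0.41, adjusted p = 0.000466) and -4.55 (SE 0.40, adjusted p = 0.000948), and the call was kept without any 1 library in both genotypes. Cd4 itself was at 0.276% and 0.307% of its CD4 level in the CD8 libraries. Ccr4 had 7 to 13 counts in each CD8 library, and the part of CD4 T cells in these values was not tested.

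Cx3cr1 was 5.67-fold higher in CD8 than in CD4 T cells of WT (log2 difference 2.50, SE 0.38, adjusted p = 0.00297) and 3.26-fold higher in STAT3KO (1.71, SE 0.36, adjusted p = 0.0231). The libraries given above for this gene do not overlap, with 6.19 to 24.0 CPM in CD4 and 43.8 to 75.8 CPM in CD8 T cells. The WT call was kept without any 1 library. The STAT3KO call was lost without any 1 of the 4 STAT3KO libraries, with adjusted p of 0.117 and 0.135 without CD4 replicate 1 and 2, and 0.105 and 0.0832 without CD8 replicate 1 and 2. The summed monocyte and macrophage list was also higher in CD8 T cells, at 320 to 438 CPM against 88.8 to 140 CPM in WT and 372 to 392 against 170 to 269 in STAT3KO. Of its 14 tested genes 3 were called higher in WT, Cd68, Itgam and Ly6c2, beside 12.2% of all genes. In STAT3KO 2 were, Cd68 and Ly6c2, beside 5.84%. All 14 estimates were higher in CD8 T cells of WT, and in STAT3KO 9 were higher and 5 lower. Ly6c2 made 163 and 180 CPM of the sum in WT CD8, against 27.1 and 31.9 in WT CD4. Itgam made 113 and 96.1 CPM, against 36.7 and 22.9. The dendritic cell list, with 2 of 8 genes tested, was at 241 to 274 CPM against 15.3 to 16.8 in WT and at 161 to 208 against 14.5 to 17.1 in STAT3KO. Nearly all of it was Itgax, which was called in both and which activated CD8 T cells can also express, while the defining genes Clec9a, Siglech and Cd209a were at 0 in all 8 libraries. Csf1r was at 0.562 and 18.1 CPM in the WT CD8 libraries, where Cx3cr1 was at 73.7 and 43.8. The NK cell list was at 62.4 to 63.7 CPM against 18.2 to 20.5 in WT and at 30.6 to 31.8 against 19.0 to 22.7 in STAT3KO, with its defining gene Ncr1 at 0 to 0.246 CPM. The part of these lists in the Cx3cr1 values was not tested.

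Ccr8 was 2.57-fold lower in CD8 than in CD4 T cells of WT (log2 difference -1.36, SE 0.38, adjusted p = 0.0379) and 4.77-fold lower in STAT3KO (-2.25, SE 0.39, adjusted p = 0.0106). The WT call was lost in 6 of the 8 fits that left out 1 library, and in the fit of the 4 WT libraries alone (adjusted p = 0.106). It held without WT CD4 replicate 2 and without WT CD8 replicate 1, and the log2 difference was -0.85 (adjusted p = 0.174) without WT CD4 replicate 1. The STAT3KO call was lost without STAT3KO CD4 replicate 1 (adjusted p = 0.0665), STAT3KO CD8 replicate 1 (0.0827) or STAT3KO CD8 replicate 2 (0.0654).

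Ccr6 was 2.95-fold higher in CD8 than in CD4 T cells of WT (log2 difference 1.56, SE 0.41, adjusted p = 0.0307). This call was lost without WT CD4 replicate 1 (adjusted p = 0.128), WT CD4 replicate 2 (0.0673) or WT CD8 replicate 2 (0.137). In STAT3KO the groups overlapped and the log2 difference of 0.90 (SE 0.43) was not called (adjusted p = 0.227).

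The other 5 receptors were not called in either genotype by edgeR in the main fit. DESeq2 called 1 of them, Cxcr4 in WT, beside 25.4% of all genes. The replicate block called all of them in WT and some in STAT3KO, beside 42.1% and 29.7% of all genes. Ccr7 and Cxcr4 had log2 differences of -0.997 and -0.754 in WT and -1.06 and -0.34 in STAT3KO, with adjusted p of 0.181, 0.0756, 0.211 and 0.467. Ccr2 was at log2 differences of 0.45 and 0.64, and Cxcr3 at -0.33 and -0.19. Cxcr6 was the receptor whose estimate changed sign between genotypes, 0.29 in WT (adjusted p = 0.0971) and -0.09 in STAT3KO (adjusted p = 0.660), which is the same contrast as its interaction above.

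**Figure D3:**
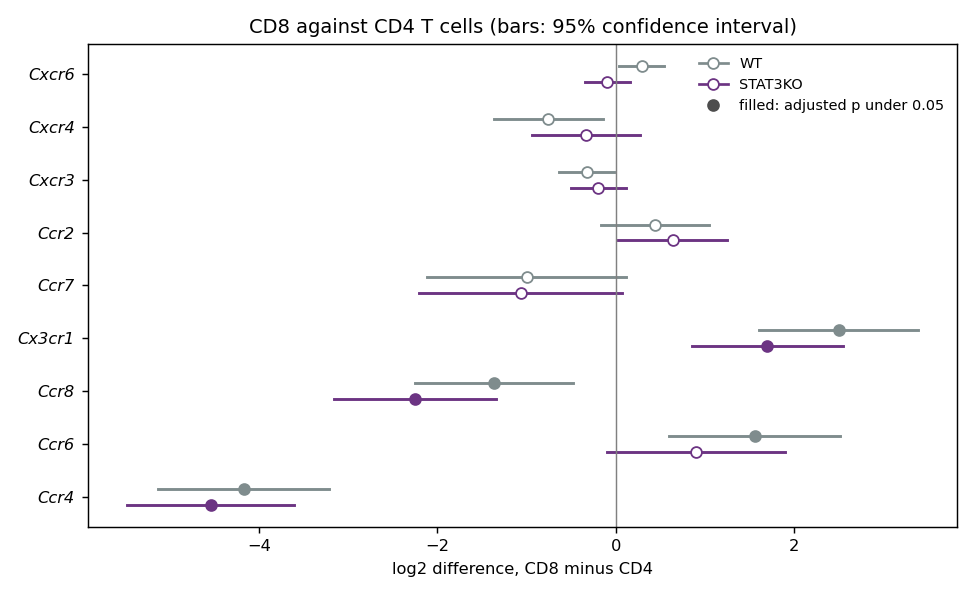
Log2 difference of CD8 minus CD4 T cells for each receptor within WT and within STAT3KO, with bars for the 95% confidence interval and filled points for an adjusted p under 0.05. Ccr4 lies lowest at -4.17 and -4.55, and Cx3cr1 is the receptor called higher in CD8 T cells in both genotypes.

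Of the 9 receptor genes 5 lie on chromosome 9, which in the mouse holds a dense cluster of chemokine receptors (mm10). Cx3cr1 (chr9:120048683-120068296, minus strand) and Ccr8 (chr9:120092133-120094906, plus strand) are separated by 23.8 kb and were called in opposite directions between CD8 and CD4 T cells in both genotypes. Cxcr6 (chr9:123806477-123811754, plus strand) begins 23.0 kb after the end of Ccr9, a receptor for homing to the small intestine. Both rose in STAT3KO CD4 T cells, Ccr9 from 11.9 and 9.22 CPM to 29.6 and 35.4 CPM. Of the 51-base windows of Ccr2 (chr9:124102183-124109140, plus strand), 51 being the read length, 1.86% also occur in other genes. Reads of that small part cannot be placed with certainty. The shares were 1.01% for Cx3cr1 and 0.465% for Ccr4, and 0 for the other 6 receptors. Cx3cr1 also shares 78 exon bases with a gene on the opposite strand, Gm33858, and since the strand setting of the counting is not given in the sources used here, reads there cannot be assigned to either gene with certainty.

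Among 13 other chemokine receptors, 6 had enough counts to be tested. In CD8 T cells none of the 6 was called by edgeR, DESeq2 or limma. There 2 (Ccr9 and Cxcr5) had an unadjusted p under 0.05 in edgeR, beside 19.3% of all genes. In CD4 T cells 3 of the 6 were called higher in STAT3KO and 1 lower, beside 6.54% and 5.08% of all genes. Ccr9 rose by a log2 value of 1.62 (SE 0.23, adjusted p = 0.00503). Ccr10, a receptor for skin and mucosal chemokines, rose from 0.599 and 0.331 CPM to 2.05 and 2.10 CPM (adjusted p = 0.0326), on 7 to 46 counts per library. Ccrl2, an atypical receptor that binds chemerin without signalling, rose from 15.5 and 13.2 CPM to 26.8 and 35.9 CPM (adjusted p = 0.0363). Cxcr5, which leads T cells into B cell follicles, fell from 253 and 247 CPM to 64.0 and 89.5 CPM (adjusted p = 0.00496). The calls of Ccr9 and Cxcr5 held without any 1 library. Those of Ccr10 and Ccrl2 were lost without any 1 of the 4 CD4 libraries, and that of Ccrl2 also without WT CD8 replicate 1, with adjusted p of up to 0.169 and 0.187. Ccr3 and Ccr1, which share ligands, were not called, with log2 differences of 0.67 and -0.51 (CD4) and of 0.66 and -0.23 (CD8).

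In the list of 11 transcription factors tied to the expression of chemokine receptors, 2 were called higher and 3 lower in STAT3KO CD4 T cells, and 1 lower in STAT3KO CD8 T cells. Of all genes, 11.6% were called in CD4 and 2.07% in CD8. Tcf7, which encodes the factor TCF1 of naive, memory and follicular helper T cells, fell in both. In CD4 T cells it measured 1452 and 1345 CPM for WT, against 420.0 and 389 for STAT3KO (adjusted p = 0.00137), and in CD8 T cells 285 and 386 against 141 and 168 (adjusted p = 0.0251). Eomes and Prdm1, factors of effector T cells, rose in CD4 T cells by log2 values of 2.03 (SE 0.29, adjusted p = 0.00551) and 0.94 (SE 0.19, adjusted p = 0.0192). Lef1, a partner of TCF1, and Zeb2, a repressor found in effector cells, fell there by 0.54 (SE 0.14, adjusted p = 0.0481) and 1.17 (SE 0.27, adjusted p = 0.0298) on the log2 scale. The CD4 calls of Tcf7 and Eomes held without any 1 library. That of Prdm1 was lost without WT CD4 replicate 2 or either STAT3KO CD4 library (adjusted p up to 0.123), and that of Zeb2 without either WT CD4 library or STAT3KO CD4 replicate 1 (up to 0.116). Lef1 kept its call in 1 of 8 such fits, the one without STAT3KO CD4 replicate 1 (adjusted p up to 0.232 in the others), and Tcf7 in CD8 T cells in 3 of 8, those without WT CD8 replicate 1 or either WT CD4 library (up to 0.128 in the others). The list moved in both directions, with a median log2 difference of 0.09 in CD4 T cells against 0.02 over all genes.

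**Figure D4:**
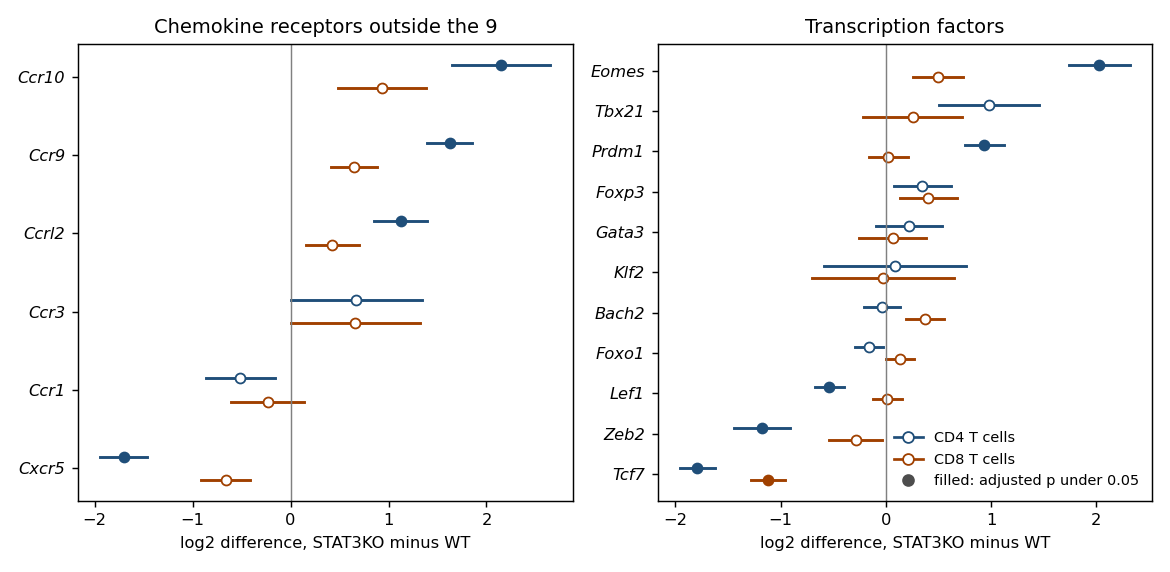
Log2 difference of STAT3KO minus WT in CD4 and CD8 T cells for 6 tested chemokine receptors outside the 9 (left) and for the 11 transcription factors (right), with bars for the SE and filled points for an adjusted p under 0.05. All filled points but that of Tcf7 are of CD4 T cells, and the largest increase is that of Ccr10, 2.15.

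Downstream of the receptors, 2 of 21 genes of signalling to movement were called, both higher in STAT3KO CD4 T cells, beside 11.6% of all genes called there in either direction. Pik3r5, a regulatory subunit of the PI3 kinase gamma that G protein-coupled receptors activate, measured 97.0 and 76.5 CPM for WT, against 259 and 209.7 for STAT3KO (adjusted p = 0.00334). Rasgrp2, which activates Rap1 and thereby integrins, measured 171 and 120.1 CPM for WT, against 367 and 311 for STAT3KO (adjusted p = 0.0125), a call lost without WT CD4 replicate 2 or STAT3KO CD4 replicate 1 (adjusted p up to 0.0869), while that of Pik3r5 held without any 1 library. None of the 21 was called by edgeR in CD8 T cells, with log2 differences of 0.52 for Pik3r5 and 0.43 for Rasgrp2. There 4 had an unadjusted p under 0.05 in edgeR, beside 19.3% of all genes. DESeq2 called 2 there, Rap1a and Rap1b, beside 7.12% of all genes. Of 13 tested genes of receptor desensitization, such as the receptor kinases and arrestins, none was called by edgeR in CD4 or CD8 T cells, with median log2 differences of 0.004 and -0.05. At an unadjusted p under 0.05 edgeR had 4 in CD4 and 2 in CD8 T cells, beside 19.3% of all genes in CD8. The share of all genes at that level in CD4 is not given here, but is at least the 11.6% called. DESeq2 called 3 (Arrb1, Grk6 and Rgs10) and 1 (Grk6), beside 14.9% and 7.12% of all genes. Of 16 ligands of the 9 receptors, 5 had enough counts in these T cells to be tested and edgeR called none in either STAT3KO comparison. In edgeR 1 of the 5, Cxcl10, had an unadjusted p under 0.05 in CD4 T cells, where the share of all genes is not given. In CD8 T cells 0 had, beside 19.3% of all genes. DESeq2 called Cxcl10 in CD4 T cells, beside 14.9% of all genes.

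Over the 8 libraries the gene whose log2 CPM was most like that of Cxcr6, among 8757 genes of at least moderate level, was Entpd1 (Pearson r = 0.991), which encodes the ectonucleotidase CD39, followed by Dclk2 (0.981) and Il10ra (0.978). For Ccr8 it was Cd5 (0.990), for Ccr4 Zcchc7 (0.997), for Ccr6 Lap3 (0.979), for Ccr7 Chd2 (0.991), for Cx3cr1 Ywhah (0.995), for Cxcr3 Pyurf (0.987), for Cxcr4 Sgpl1 (0.980) and for Ccr2 Zfp82 (0.970). Among the 9 receptors themselves, Cxcr3 and Cxcr4 (r = 0.966) and Ccr4 and Ccr8 (0.946) were most alike, and Ccr2 and Ccr7 (-0.904) and Cxcr3 and Cx3cr1 (-0.889) most opposed. The 8 libraries are shared by all genes and fall into 4 groups of 2, so these values are a description.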

How the data were processed

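Counts were deposited by the authors as whole reads per gene, and a second deposited table gives RPKM. Per the study's methods, single-end reads were aligned to mm10 with STAR, counted per RefSeq gene with HTSeq-count and scaled by TMM. The labels and the methods name different library kits, and the deposited growth and treatment protocols describe another cell system and were not used. Here edgeR 4.0.16 (R 4.3.3) was fitted to the counts of all 8 libraries in 4 groups: TMM, filterByExpr with a minimum count of 10, quasi-likelihood F-test, two-sided, Benjamini-Hochberg over 12428 genes, called under 0.05. RPKM were used to compare genes and, as log2(RPKM + 1) and log2(RPKM + 0.1) in limma 3.58.1, as alternatives. Further alternatives were DESeq2 1.42.0, RLE factors, total counts, no filter, a replicate block, the 4 libraries of a comparison alone and leaving out each library. The script was checked on simulated counts. Exon positions come from the GENCODE annotation and sequences before gene starts from RefSeq. The 9 receptors were all described, and list genes were named when called in a STAT3KO comparison, or as tested chemokine receptors. Some genes of the lists are not reported here. Receptors and lists were chosen with earlier results of these data known. Depth of 20171396 to 23282757 counts limits Ccr4 in CD8 T cells most. Intervals and floors cover counting error only where so stated.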

Additional observations from a re-analysis of the deposited data

How the results depend on the processing

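The call counts of the 9 receptors moved with the test. For STAT3KO in CD4 T cells 1 receptor was called, beside 11.6% of all genes. The count was 2 with DESeq2 or with no low-count filter (adjusted p of Cx3cr1 0.0123 and 0.0372), beside 14.9% and 8.93% of all genes. For STAT3KO in CD8 T cells 0, beside 2.07%, became 1, Ccr6, with either, beside 7.12% and 2.58%. With a replicate block, which compares libraries of the same number, 6 receptors were called for CD4 (Cxcr6, Cx3cr1, Ccr4, Ccr8, Ccr6 and Ccr7), 1 for CD8 (Ccr6), 0 for the interaction, 9 for CD8 against CD4 in WT and 7 in STAT3KO, while the block also raised the calls over all genes, to 30.1%, 18.2%, 3.24%, 42.1% and 29.7%. Deviations of same-numbered libraries from their group means correlated at 0.424 to 0.671 between groups, and the leading sample numbers in the titles form a separate run for each replicate number. With 2 numbers, and labels that do not say what a number marks, they were not treated as pairs in the values of the report. Fits on only the 4 libraries of a comparison called 37 genes for STAT3KO in CD8 T cells instead of 257, and DESeq2 called 885. Leaving out 1 library changed how many receptors were called for STAT3KO in CD4 T cells and for CD8 against CD4 in both genotypes. The share of all genes called moved in the same fits. The lone library left in a group was then assumed to vary like the others. Under the alternatives other than leaving out 1 library, 325 log2 differences of the 9 receptors kept their direction and side of the threshold. Of the rest 22 came to pass it, 1 no longer passed it and 3 turned. The 1 was Ccr8 in WT, in the fit of only the 4 WT libraries.

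The near-zero interaction of Ccr7, -0.07, became 0.011 with the block, 0.11 with log2(RPKM + 1) and 0.10 with log2(RPKM + 0.1). Directions that turned without 1 library were all of values not called. For STAT3KO in CD4 T cells the log2 range was -0.10 to 0.30 for Ccr2, -0.258 to 0.067 for Cxcr3, -0.62 to 0.003 for Cxcr4 and -0.2 to 1.18 for Ccr3. In CD8 T cells it was -0.14 to 0.61 for Ccr2, -0.021 to 0.101 for Cxcr3, -0.10 to 0.36 for Cxcr4, -1.32 to 0.25 for Ccr7, -0.59 to 0.37 for Ccr8, -0.005 to 0.74 for Cx3cr1 and -0.021 to 1.84 for Ccr3. For the interaction it was -0.23 to 0.53 for Ccr2, -0.02 to 0.29 for Cxcr3, -0.807 to 0.017 for Ccr4 and -0.63 to 0.93 for Ccr7. The cause was not tested. With 2 libraries per group a difference of the size of that of Ccr6 or Cx3cr1 could pass or miss the threshold with the choice of test.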

Other observations

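In each group, genes outside the receptors also separated the libraries numbered 1 and 2. Klf2, a transcription factor that keeps T cells recirculating, measured 892 and 270.5 CPM in CD4 T cells of WT, against 903 and 331 for STAT3KO, and in CD8 T cells 642 and 279 against 581 and 325. Rgs1, which dampens chemokine receptor signalling, measured 618 and 197 CPM against 818 and 383 in CD4 T cells, and 778 and 256 against 845 and 377 in CD8 T cells. Both were higher in the library numbered 1 in 4 of 4 groups, as Ccr2 and Cx3cr1 were, whereas Cxcr3, Cxcr4, Ccr6 and Ccr7 were higher in the library numbered 2. These genes were chosen after their values were seen.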
